A study of Rattus norvegicus with 8 samples.

Results

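The genes described here are the 5 muscarinic acetylcholine receptors (Chrm1, Chrm2, Chrm3, Chrm4 and Chrm5) and 5 genes by which neurons make, load, recover and break down acetylcholine (Chat, Slc18a3, Slc5a7, Ache and Bche). Each was taken as 1 RefSeq transcript record, given by its identifier, so the members were 10 of the 18314 records quantified in every library, and all 10 were found. RNA came from the right stellate ganglion of 4 male spontaneously hypertensive rats (SHR) with established hypertension and 4 male Wistar rats, all 16 weeks old and with 1 ganglion of 1 rat in each library. The labels name no treatment for either strain. The Wistar rats served as normotensive controls in place of Wistar Kyoto (WKY) rats, the inbred strain derived from Wistar stock, so a difference between the groups is a difference between 2 strains, in which blood pressure and genetic background cannot be told apart.

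The stellate ganglion holds postganglionic sympathetic neurons that supply the heart and the upper body. Most of them release noradrenaline, a minority in rodents are cholinergic and supply sweat glands and other targets, and the preganglionic axons that end on all of them release acetylcholine. Choline acetyltransferase (Chat) makes acetylcholine from choline and acetyl-CoA, the vesicular transporter Slc18a3 (VAChT) loads it into vesicles, the high-affinity transporter Slc5a7 (CHT1) brings choline back into the terminal, and the esterases encoded by Ache and Bche split the transmitter. Chrm1, Chrm3 and Chrm5 couple to Gq and phospholipase C, whereas Chrm2 and Chrm4 couple to Gi and Go, which lower cyclic AMP and act on ion channels. The RNA of preganglionic neurons is made in the spinal cord, so transcripts measured in a ganglion come mainly from cells whose bodies lie in it.

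Chat and Slc18a3 form the cholinergic gene locus, in which the vesicular transporter lies inside the first intron of Chat on the same strand and both are known to share regulatory sequence. They are shown because the results below turn on these neighbours. In the RefSeq annotation of the GRCr8 rat assembly the start of Slc18a3 lay 602 bases downstream of that of Chat. The 250 bases before each start are given 5′ to 3′ on the minus strand of chromosome 16, with capitals marking matches to the motifs searched, for Chat at chr16:7723417-7723666 and for Slc18a3 at chr16:7722815-7723064.
Chat: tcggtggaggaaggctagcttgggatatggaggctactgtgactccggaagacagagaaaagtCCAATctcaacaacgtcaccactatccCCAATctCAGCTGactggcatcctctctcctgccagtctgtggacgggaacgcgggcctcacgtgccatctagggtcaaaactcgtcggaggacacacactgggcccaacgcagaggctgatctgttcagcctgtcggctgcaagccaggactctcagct
Slc18a3: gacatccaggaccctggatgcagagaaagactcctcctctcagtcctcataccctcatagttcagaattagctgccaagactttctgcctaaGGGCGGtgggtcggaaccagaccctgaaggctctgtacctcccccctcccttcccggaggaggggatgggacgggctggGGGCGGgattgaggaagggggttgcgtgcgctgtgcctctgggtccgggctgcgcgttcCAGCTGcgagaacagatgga

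The motifs were searched on both strands and were the GC box (GGGCGG), the CCAAT box (CCAAT), the TATA box (TATAAA) and 1 form of the E-box (CAGCTG), and no 2 matches overlapped. The Chat window held 2 CCAAT matches and 1 E-box, and the Slc18a3 window held 2 GC boxes and 1 E-box. Over 33469 RefSeq promoter windows of this length, 30.5% held the GC box, 34.0% the CCAAT box and 12.9% the TATA box, and 4007 windows held the E-box. The G and C content was 57.2% for Chat and 61.6% for Slc18a3, against a median of 51.2% over all windows. Such matches describe letters and do not show that a factor binds there.

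The authors mapped read pairs to RefSeq transcripts with Salmon, which gives each record an estimated count and a TPM, a transcript level relative to the whole library and corrected for transcript length. The estimated counts summed to between 25820299 and 35509074 per rat. For the strain comparison the counts were scaled by edgeR's TMM factors to a common library size and are called normalised counts, and edgeR's quasi-likelihood test was run on the 13659 records with enough counts, with p-values adjusted over all of them (Benjamini-Hochberg). At an adjusted p under 0.05 it called 389 records, or 2.85%, of which 158 (1.16%) were higher and 231 (1.69%) lower in SHR. The labels do not say whether the rats came from separate litters, so the p-values measure the spread between these rats. Of the 10 members, 8 were tested, and Chrm3 and Chrm4 had too few counts.

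Slc18a3 (NM_031663), the vesicular acetylcholine transporter, was the member that differed between the strains. Its normalised counts were 446.7, 563.3, 391.9 and 623.1 in Wistar rats 1 to 4 and 231.9, 176.5, 144.9 and 115.6 in SHR 1 to 4. Every SHR was below every Wistar rat, with a gap between the lowest Wistar rat (rat 3) and the highest SHR (rat 1). The mean fell from 506 ± 106 to 167 ± 49.8 normalised counts (SD, n = 4 rats each). This gave a log2 fold change, SHR against Wistar, of -1.60 with a standard error of 0.24 and a 95% interval from -2.06 to -1.14, a level 3.03-fold higher in Wistar (edgeR, adjusted p = 0.00557). A log2 fold change this low or lower was found for 121 of the 13659 tested records (0.886%). The strains did not overlap for 10.6% of all tested records, 5.96% with SHR below, so the lack of overlap in 1 of 8 tested members was near the background; SHR lay above for 4.63% of records and for 0 members. DESeq2 called 782 of 14956 records (5.23%), 353 of them higher (2.36%) and 429 lower (2.87%) in SHR, and among the members Slc18a3 alone. In a whole ganglion, fewer cells that express a gene and less RNA per cell cannot be told apart.

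Chat (NM_001170593), the gene around Slc18a3 that encodes the synthesising enzyme, gave levels that overlapped widely. Its TPM was 3.34, 4.17, 2.61 and 2.65 in Wistar rats 1 to 4 and 3.23, 1.84, 4.68 and 2.70 in SHR 1 to 4. The lowest and the highest of the 8 rats were both SHR, rats 2 and 3. Its counts gave a log2 fold change of -0.05 with a standard error of 0.25 (edgeR, adjusted p = 0.948), and the 95% interval, -0.53 to 0.44, did not reach the estimate for Slc18a3. Salmon gave Chat counts that were not whole in 8 of 8 rats, as when reads also fit another record. A search for a single record whose counts added to those of Chat gave whole numbers in every rat found none. The Chat estimate is thus less certain than those of the other 9 members, whose counts were whole within 0.01 in every rat.

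**Figure D1:**
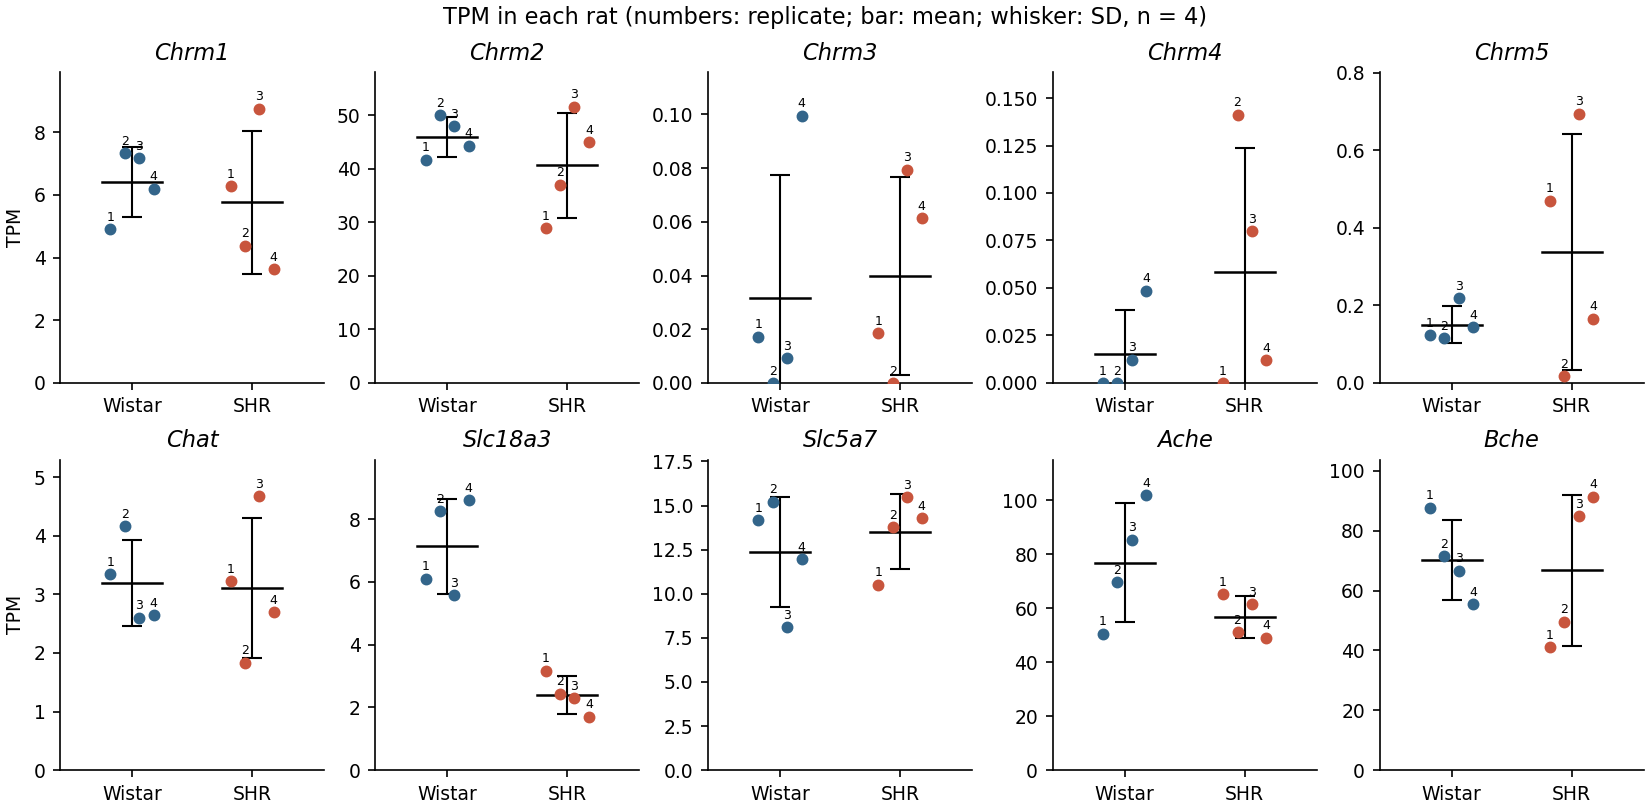
TPM of the 10 members in each rat, with 1 panel per gene and its own axis from 0, Wistar in blue and SHR in red; numbers are rats, bars are means and whiskers are SD (n = 4 each). The 4 SHR lie below the 4 Wistar rats for Slc18a3, and the strains overlap in the other 9 panels.

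Slc5a7 (NM_053521), the choline transporter of cholinergic terminals, also overlapped between the strains. It was measured at 14.2, 15.2, 8.12 and 11.97 TPM in Wistar rats 1 to 4 and at 10.5, 13.8, 15.5 and 14.3 TPM in SHR 1 to 4. Wistar rat 3 was the lowest of the 8 rats and SHR 3 the highest. The strain difference was a log2 fold change of 0.14 with a standard error of 0.20 and a 95% interval from -0.26 to 0.53 (edgeR, adjusted p = 0.774).

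The ratio within each rat set Slc18a3 apart from its partners. Slc18a3 TPM divided by Chat TPM was 1.83, 1.98, 2.14 and 3.25 in Wistar rats 1 to 4 and 0.983, 1.33, 0.490 and 0.633 in SHR 1 to 4. All 4 Wistar rats had more of the transporter than of the enzyme per transcript length, and SHR 2 was the 1 SHR of which this was true. Slc18a3 divided by Slc5a7 averaged 0.595 ± 0.134 in Wistar and 0.187 ± 0.0803 in SHR (SD, n = 4), with no overlap. Slc5a7 divided by Chat averaged 3.88 ± 0.624 in Wistar and 4.84 ± 2.01 in SHR and overlapped, with SHR 2 at 7.50 as the highest rat. The ratios share Slc18a3 with the comparison above and were not tested.

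**Figure D2:**
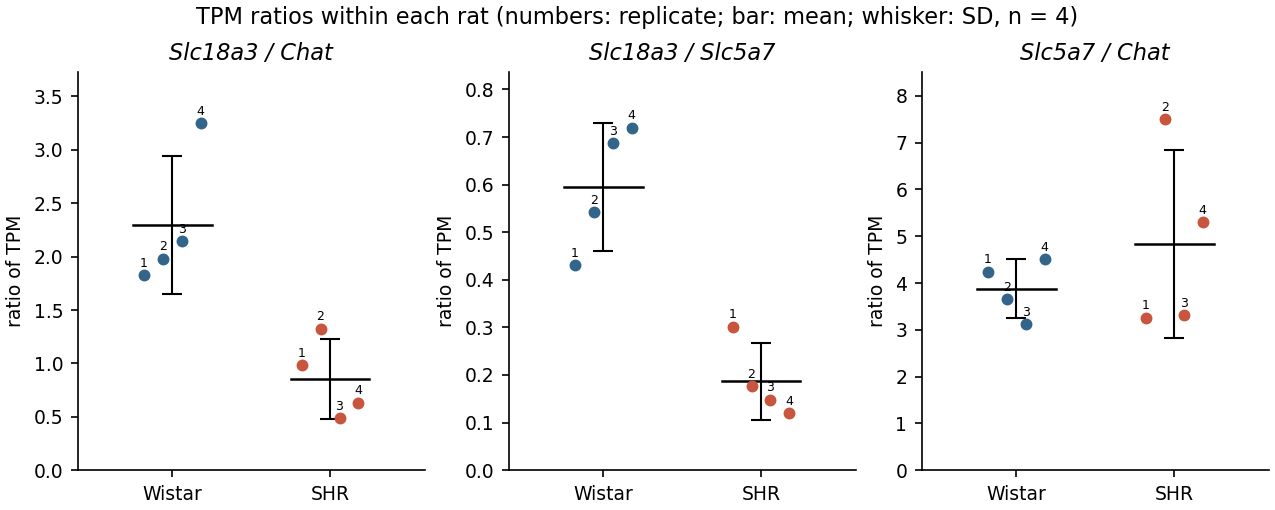
Ratios of TPM within each rat for Slc18a3 over Chat, Slc18a3 over Slc5a7 and Slc5a7 over Chat; numbers are rats, bars are means and whiskers are SD (n = 4 each). The first ratio ran from 1.83 to 3.25 in Wistar and from 0.490 to 1.33 in SHR, and the third overlapped.

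Chrm2 (NM_031016), the Gi-coupled receptor known from the heart and from presynaptic terminals, was the most abundant muscarinic receptor record in every rat. It was at 41.7, 49.95, 47.9 and 44.2 TPM in Wistar rats 1 to 4 and at 28.9, 37.0, 51.6 and 45.0 TPM in SHR 1 to 4. SHR 1 and SHR 2 were the 2 lowest rats and SHR 3 the highest, so the strains overlapped. Chrm2 made up 87.5% ± 1.17 of the summed TPM of the 5 receptors in Wistar and 86.6% ± 4.94 in SHR (SD, n = 4). Between the strains its counts had a log2 fold change of -0.17 with a standard error of 0.14 and a 95% interval from -0.44 to 0.09 (edgeR, adjusted p = 0.540).

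Chrm1 (NM_080773), the Gq-coupled receptor that closes M-type potassium channels in sympathetic neurons, was the next in level. It was at 4.90, 7.33, 7.18 and 6.21 TPM in Wistar rats 1 to 4 and at 6.29, 4.38, 8.75 and 3.63 TPM in SHR 1 to 4. The lowest and the highest rats were again SHR, here rats 4 and 3. Its share of the summed receptor TPM was 12.1% ± 1.13 in Wistar and 12.5% ± 4.45 in SHR (SD, n = 4). The strains differed by a log2 fold change of -0.16 with a standard error of 0.25 and a 95% interval from -0.65 to 0.33 (edgeR, adjusted p = 0.784).

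Chrm5 (NM_017362), a Gq-coupled receptor with low levels in most tissues, rested on few reads. The estimated counts were 9, 7, 15 and 10 in Wistar rats 1 to 4 and 32, 1, 44 and 12 in SHR 1 to 4. SHR 1 and SHR 3 stood above all Wistar rats and SHR 2 below them. The estimated log2 fold change was 1.13 with a standard error of 0.74, and its 95% interval ran from -0.31 to 2.57 (edgeR, adjusted p = 0.464). The size depended on the processing, at 0.62 without SHR 3, 0.69 with the replicate block, and 0.48 and 0.19 with limma on log2(TPM + 0.1) and log2(TPM + 1), and no alternative passed the threshold.

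Chrm3 (NM_012527), the Gq-coupled receptor of glands and smooth muscle, and Chrm4 (NM_031547), a Gi-coupled receptor, were at the limit of detection. Chrm3 had estimated counts of 2, 0, 1 and 11 in Wistar rats 1 to 4 and 2, 0, 8 and 7 in SHR 1 to 4. Chrm4 had 0, 0, 1 and 4 in Wistar rats 1 to 4 and 0, 9, 6 and 1 in SHR 1 to 4. A count of 0 allows up to 3 counts, which is 0.0845 to 0.116 CPM (counts scaled to library size) at the depth of these libraries and covers counting error only. Both genes reached more than 3 counts in at least 1 rat of each strain, and in both the strains overlapped. Without the filter on low counts the log2 fold change was 0.28 for Chrm3 (edgeR, adjusted p = 0.933) and 1.77 for Chrm4 (edgeR, adjusted p = 0.547), so a strain difference in either was not detectable at this depth.

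Ache (NM_172009), which encodes acetylcholinesterase, had the second lowest p-value of the tested members and did not pass the threshold. Its TPM was 50.6, 69.7, 85.4 and 102 in Wistar rats 1 to 4 and 65.2, 51.1, 61.5 and 49.1 in SHR 1 to 4. The 3 highest rats were Wistar, and Wistar 1 lay among the SHR. The log2 fold change was -0.44 with a standard error of 0.19 and a 95% interval from -0.81 to -0.07 (edgeR, adjusted p = 0.281, unadjusted p = 0.0438). An unadjusted p under 0.05 was reached by 16.8% of all tested records. Without Wistar 1 and SHR 1, the rats with the highest summed adipocyte markers of their strains, the log2 fold change was -0.69 (edgeR, adjusted p = 0.0287), a comparison chosen after the values were seen. That fit called far more records in general, 1068 of 13707 with 765 lower in SHR, against 389 of 13659 with all rats.

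Bche (NM_022942), which encodes butyrylcholinesterase, a broader esterase made by glia and other non-neuronal cells, did not differ beyond the spread. Its TPM was 87.6, 71.6, 66.6 and 55.3 in Wistar rats 1 to 4 and 41.0, 49.6, 84.9 and 91.4 in SHR 1 to 4. SHR 1 and SHR 2 were the 2 lowest rats and SHR 4 the highest. The log2 fold change was -0.09 with a standard error of 0.25 and a 95% interval from -0.57 to 0.39 (edgeR, adjusted p = 0.890). Within Wistar, the rat lowest in Ache was the highest in Bche and the rat highest in Ache the lowest in Bche, and in SHR the same held for rat 4 and rat 1. The ratio of Ache to Bche TPM ran from 0.578 to 1.84 in Wistar and from 0.537 to 1.59 in SHR, whereas the sum of both ran from 138 to 157 TPM in Wistar and from 101 to 146 TPM in SHR.

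**Figure D3:**
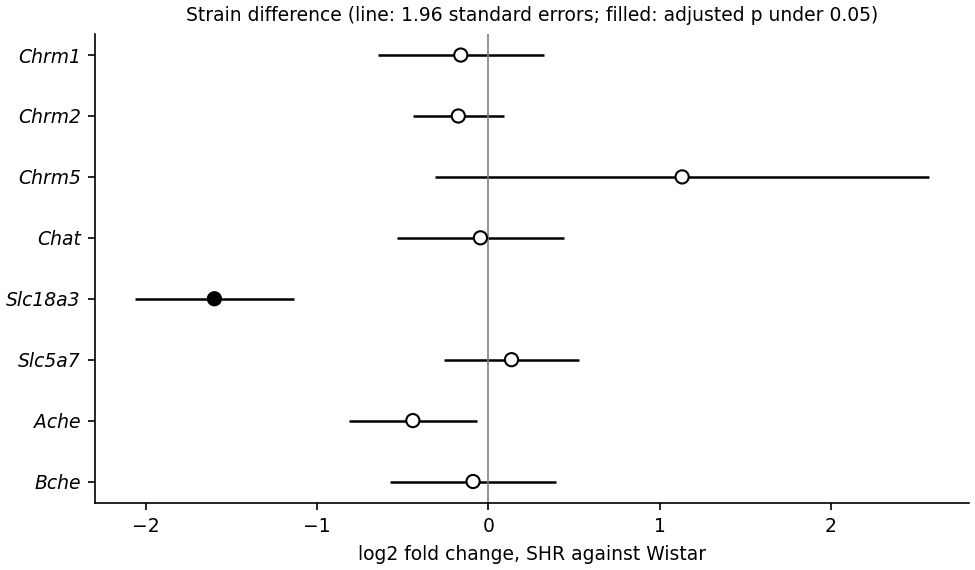
Log2 fold change of counts, SHR against Wistar, for the 8 tested members, with lines for the 95% interval and a filled point for an adjusted p under 0.05 (edgeR, 4 rats per strain). Slc18a3 is at -1.60 with the only filled point, and the lines of Chrm1, Chrm2, Chrm5, Chat, Slc5a7 and Bche cross 0.

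On the TPM scale, which allows levels of different genes to be compared per length, the mean levels in Wistar fell in the order Ache (76.9), Bche (70.3), Chrm2 (45.9), Slc5a7 (12.4), Slc18a3 (7.14), Chrm1 (6.40), Chat (3.19), Chrm5 (0.150), Chrm3 (0.0315) and Chrm4 (0.0152). Of the neighbours in that order, Ache and Bche, Slc5a7 and Slc18a3, Slc18a3 and Chrm1, and Chrm3 and Chrm4 overlapped between rats. In SHR the order was Bche (66.7), Ache (56.7), Chrm2 (40.6), Slc5a7 (13.5), Chrm1 (5.76), Chat (3.11), Slc18a3 (2.40), Chrm5 (0.337), Chrm4 (0.0583) and Chrm3 (0.0398). There, 3 gaps between neighbours were free of overlap, those of Chrm2 and Slc5a7, of Slc5a7 and Chrm1, and of Slc18a3 and Chrm5. By mean, Slc18a3 stood above Chrm1 and Chat in Wistar and below both in SHR, but not in every rat. Wistar 3 had Slc18a3 at 5.58 TPM below Chrm1 at 7.18, and SHR 2 had Slc18a3 at 2.43 TPM above Chat at 1.84.

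The tissue label was checked against marker lists. Neuronal markers, led by Tubb3 and Thy1, summed to 30394 to 32241 TPM in Wistar and 26043 to 30078 TPM in SHR, and markers of satellite glia and Schwann cells to 877 to 1073 and 788 to 872 TPM. Both sums were lower in every SHR than in any Wistar rat, by narrow gaps, and such sums follow their most abundant records. The list medians were log2 fold changes of -0.10 and -0.23 (edgeR). Single markers went both ways, with Thy1 at -0.37, Tubb3 at 0.004, Prph at 0.20, Sox10 at 0.33, Fabp7 at 0.42 and Kcnj10 at 0.12 (edgeR). In edgeR 0 of the 25 tested records of these 2 lists passed the adjusted p threshold and 6 had an unadjusted p under 0.05. DESeq2 called 1, a record of the myelin gene Mbp. With the counts scaled to the neuronal sum instead, Slc18a3 had a log2 fold change of -1.48 (edgeR, adjusted p = 0.0142). Endothelial and smooth muscle markers ran from 81.8 to 158 TPM in Wistar and from 42.4 to 160 TPM in SHR, and were lowest in SHR 3, SHR 4 and Wistar 1, the 3 rats highest in Bche. Macrophage markers ran from 51.2 to 82.0 and from 23.9 to 94.4 TPM, and adipocyte markers from 7.88 to 65.3 and from 6.57 to 150 TPM. Skeletal muscle markers were at 42.1 to 54.3 and 49.4 to 59.0 TPM, nearly all of it Acta1, with 7 of 18 records at a rounded count of 0 in every rat. In these last 4 lists 0 of 22 tested records passed the threshold in edgeR, 1 had an unadjusted p under 0.05 and DESeq2 called 1, a record of the adipocyte gene Cidec. The part of the other cell types in the members' values was not tested.

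The genes that act beside the members were grouped in 6 lists, in which 7 of 72 tested records passed the adjusted p threshold in edgeR, all lower in SHR, against 2.85% of all tested records (1.69% lower). An unadjusted p under 0.05 was found for 22 of them, against 16.8%, and DESeq2 called 13, against 5.23%. The median log2 fold change of all 13659 tested records was 0.01. The lists were chosen with earlier results of these data known, and their counts describe them only.

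Of the neuronal nicotinic subunits, which form the channels that carry fast transmission onto these neurons, edgeR called 1 of 6 tested records lower in SHR and 0 higher, 2 had an unadjusted p under 0.05, and the median log2 fold change was -0.15. DESeq2 called the same record. Chrnb4, the beta subunit that pairs with Chrna3 in ganglia, had normalised counts of 14898, 15125, 14260 and 12099 in Wistar rats 1 to 4 and 7539, 9805, 10918 and 8077 in SHR 1 to 4. Every SHR was below every Wistar rat, at a log2 fold change of -0.63 with a standard error of 0.13 (edgeR, adjusted p = 0.0299). The adjusted p rose to between 0.0545 and 0.103 without Wistar 1, Wistar 2, Wistar 3, SHR 2 or SHR 4, left out 1 at a time (edgeR). Chrna3, at 1354 TPM in Wistar and 1308 TPM in SHR, had a log2 fold change of -0.04 (edgeR, adjusted p = 0.858) and was looked up after the values were seen.

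Of 12 tested records for choline supply and for anchoring of acetylcholinesterase, 0 passed the threshold in edgeR, 3 had an unadjusted p under 0.05, and their median log2 fold change was 0.07. DESeq2 called 2 of them, records of the choline transporter-like genes Slc44a1 and Slc44a3, for which edgeR gave log2 fold changes of 0.84 (adjusted p = 0.0936) and 0.98 (adjusted p = 0.135), both chosen after the values were seen. That Slc44a1 record (NM_053492) was the minor one, at 2.89 TPM in Wistar and 5.22 TPM in SHR, and the major one (NM_001033852), at 29.5 and 26.1 TPM, had a log2 fold change of -0.16 (edgeR, adjusted p = 0.497). The most abundant were Acly, the enzyme that makes cytosolic acetyl-CoA, with 0.30 (edgeR, adjusted p = 0.420), and Slc44a2, of the same family as Slc44a1, with -0.15 (edgeR, adjusted p = 0.527). Of 16 tested records of the Gq pathway, 0 passed in edgeR or DESeq2 and 1 had an unadjusted p under 0.05 (edgeR), with a median log2 fold change of -0.16. The most abundant were Rgs4, which speeds the shut-off of Gq and Gi proteins, with -0.14 (edgeR, adjusted p = 0.429), and the phospholipase Plcb4 with -0.19 (edgeR, adjusted p = 0.571). A record for Prkca was not used here.

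Of 15 tested records of the Gi pathway, edgeR called 2 lower in SHR and 0 higher, 7 had an unadjusted p under 0.05, and the median log2 fold change was 0.16. DESeq2 called these 2 and Gnai3, a Gi alpha subunit with a log2 fold change of -0.40 in edgeR (adjusted p = 0.0677) and no overlap of the strains, named after its values were seen. The list did not move in 1 direction. Gnai2, a more abundant Gi alpha subunit, was at 0.33 with every SHR above every Wistar rat (edgeR, adjusted p = 0.0869). Gnao1 was at -0.25 without overlap and Kcnj6 at 0.71 with overlap (edgeR, adjusted p = 0.199 and 0.199). These 3 were also looked up after the values were seen. Kcnj3, a subunit of the potassium channel that Chrm2 opens through G-protein beta-gamma, was measured at 4.58, 4.46, 3.34 and 3.23 TPM in Wistar rats 1 to 4 and 1.48, 2.17, 2.45 and 1.57 TPM in SHR 1 to 4. Its log2 fold change was -1.03 with a standard error of 0.23 (edgeR, adjusted p = 0.0449), and the adjusted p was between 0.0526 and 0.136 when any 1 of the 8 rats was left out (edgeR). Rgs8, a regulator that speeds Gi signalling to such channels, was at 18.1, 15.2, 18.03 and 14.3 TPM in Wistar rats 1 to 4 and 8.97, 9.05, 12.6 and 8.88 TPM in SHR 1 to 4. The strains did not overlap for either gene, and Rgs8 had a log2 fold change of -0.73 with a standard error of 0.13 (edgeR, adjusted p = 0.0124).

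The list closest in role to Slc18a3 held peptides and receptors of cholinergic sympathetic neurons, and edgeR called 2 of its 12 tested records lower in SHR and 0 higher, 6 had an unadjusted p under 0.05, and the median log2 fold change was -0.31. Vip, a cotransmitter of cholinergic sympathetic neurons, was at 378, 226, 174 and 219 TPM in Wistar rats 1 to 4 and 87.2, 74.8, 124 and 55.7 TPM in SHR 1 to 4. Wistar 1 stood above the rest, and every SHR lay below every Wistar rat. Its log2 fold change was -1.57 with a standard error of 0.28 (edgeR, adjusted p = 0.0143), and the adjusted p was 0.0521 without SHR 2 (edgeR).

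Calca, which encodes calcitonin and its gene-related peptide, was at 16.4, 24.1, 20.1 and 10.8 TPM in Wistar rats 1 to 4 and 5.97, 7.24, 3.82 and 8.33 TPM in SHR 1 to 4. The strains did not overlap, at a log2 fold change of -1.45 with a standard error of 0.31 (edgeR, adjusted p = 0.0352). The adjusted p lay between 0.0569 and 0.1102 when any rat but Wistar 4 or SHR 3 was left out, 1 at a time (edgeR), and a further Calca record that shares sequence with it had -1.37 (edgeR, adjusted p = 0.0677). DESeq2 called 4 records of the list, those of Vip, both of these Calca records and that of Gfra3, a co-receptor of the GDNF family, for which edgeR gave a log2 fold change of -0.90 (adjusted p = 0.126). The further Calca record and Gfra3 were looked up after the values were seen. The remaining tested records of the list, among them those for Sst, Ret, Gfra2, Cntfr and Lifr, did not pass the threshold in either tool, and one for Tlx3 was not used here.

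Of 11 tested records of noradrenergic genes, edgeR called 2 lower in SHR and 0 higher, 3 had an unadjusted p under 0.05, and the median log2 fold change was -0.14. Both calls were records of Ddc, the decarboxylase that makes dopamine, with log2 fold changes of -1.08 (edgeR, adjusted p = 0.000306) and -0.92 (edgeR, adjusted p = 0.00162), and Salmon may divide reads between them. DESeq2 called these 2 and Gata3, a transcription factor of sympathetic neurons, for which edgeR gave a log2 fold change of -1.02 (adjusted p = 0.161). The log2 fold changes of the synthesis and storage genes Th, Dbh and Slc18a2, the vesicular monoamine transporter, were -0.14, -0.28 and -0.20 with adjusted p of 0.459, 0.324 and 0.421 (edgeR), and these genes and Gata3 were looked up after the values were seen. Others of the list were positive, also looked up afterwards. Slc6a2, Npy, Phox2a and a further, minor Ddc record had 0.27, 0.21, 0.16 and 0.17 with adjusted p of 0.402, 0.467, 0.629 and 0.850 (edgeR), and Hand2 had -0.04 (edgeR, adjusted p = 0.864).

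**Figure D4:**
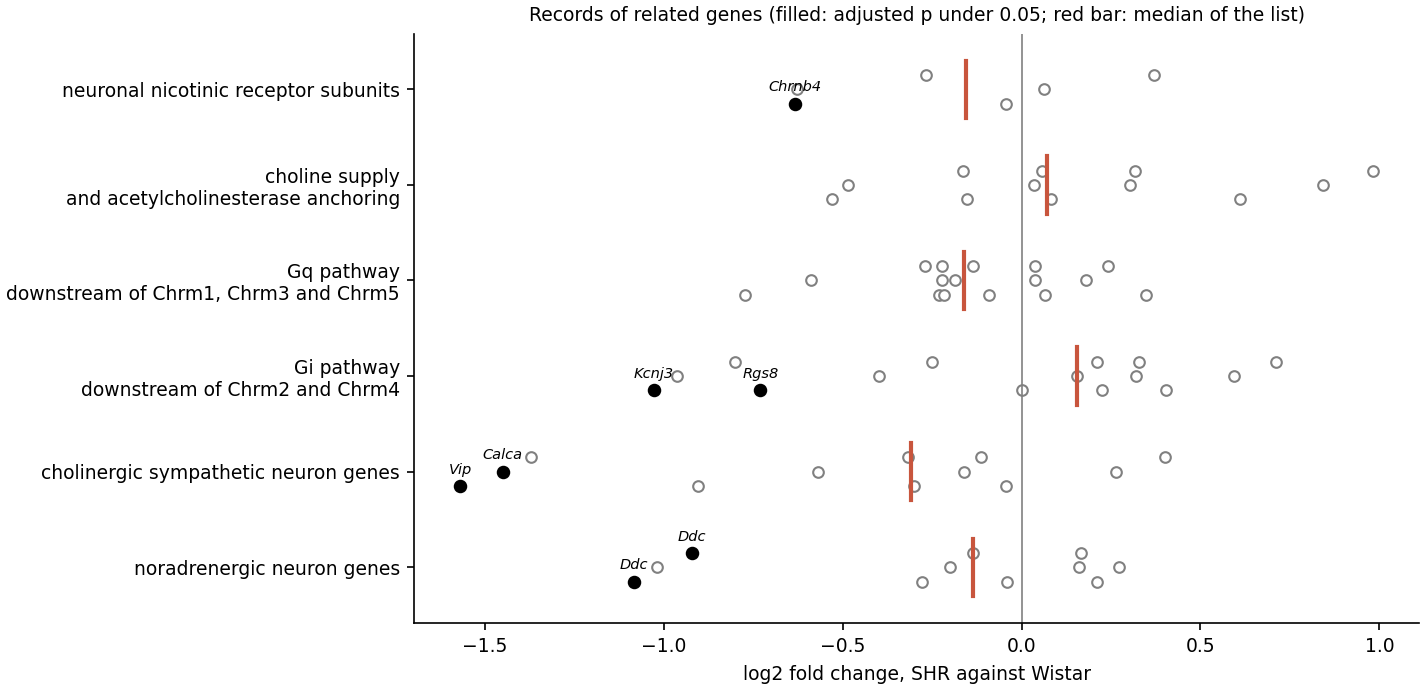
Log2 fold change of counts, SHR against Wistar, for every tested record of the 6 lists of related genes (4 rats per strain); filled points have an adjusted p under 0.05 by edgeR and carry the gene name, and red bars mark list medians. The 7 filled points all lie below 0, from -1.57 for Vip to -0.63 for Chrnb4.

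The records whose normalised counts followed Chat and Chrm2 most closely over the 8 rats were ranked by Pearson's r on the log2 scale, as a description over rats that share libraries and depth. For Chat they were a record without a gene name (0.963), the zinc finger gene Zfp84 (0.936), Whrn (0.931), Myom1 (0.930) and Cep55 (0.926), and 10 of all tested records were above 0.9. For Chrm2 they were Hap1 (0.992), Btrc (0.989), Tmcc3 (0.975), Pja2 (0.970) and Shoc2 (0.967), and 56 were above 0.9. Whrn, Myom1, Cep55 and Hap1 were at low mean levels of 0.669, 0.379, 0.409 and 0.881 TPM. Among 13659 records and 8 rats, high correlations can arise without any relation, and how many would do so was not estimated. None of these 10 named records passed the strain threshold, with adjusted p from edgeR between 0.495 and 0.966. They were picked to follow, over all 8 rats, members without a called strain difference. The lack of calls therefore follows largely from the choice and is no separate result.

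Slc18a3 stayed past the threshold in all 23 other ways of processing tried, which included DESeq2, limma on TPM, other scalings and filters, a block for the replicate number and fits without single rats. Its log2 fold change ranged from -1.86 to -1.26 and its adjusted p from 5.54e-09 to 0.0493, the latter with the block in edgeR. Chat did not pass it in any of the same 23, with log2 fold changes from -0.23 to 0.12.

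**Figure D5:**
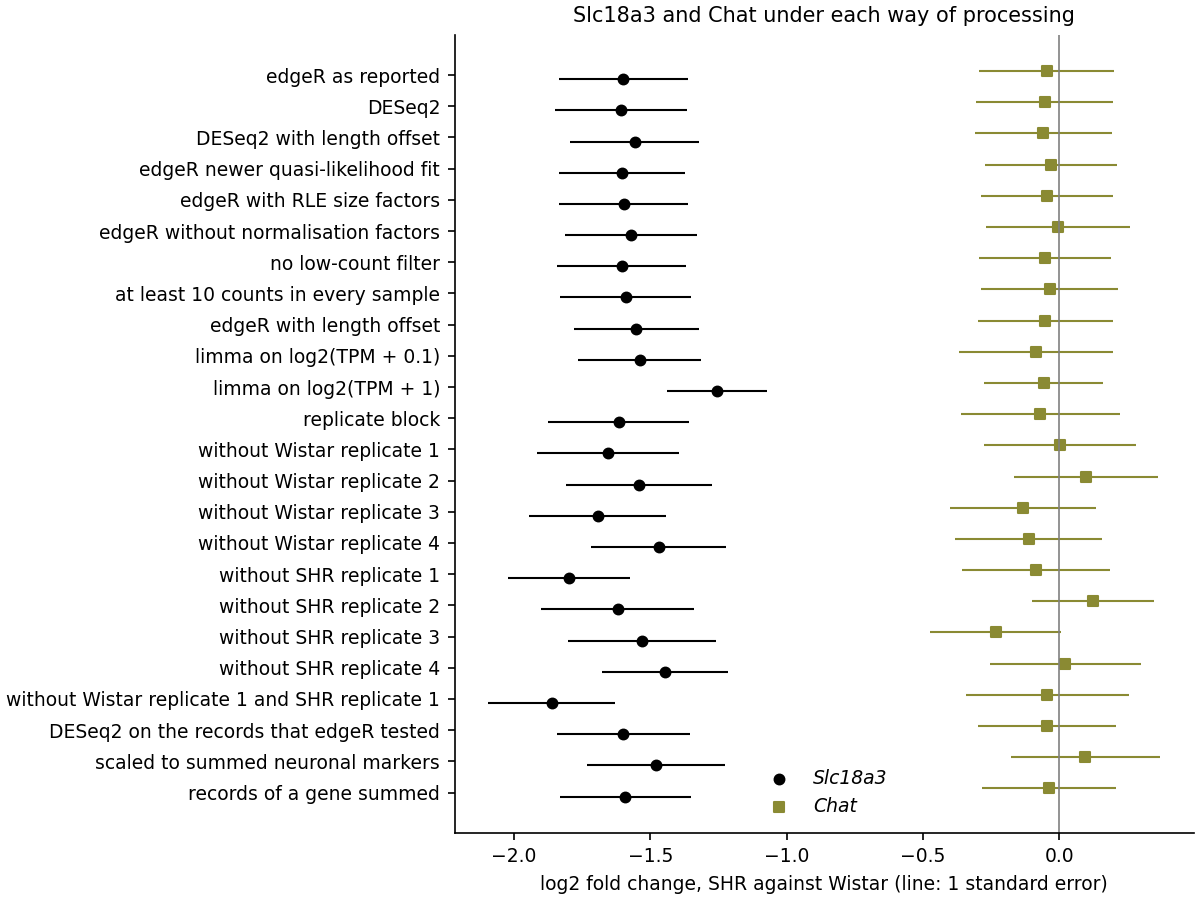
Log2 fold change, SHR against Wistar, of Slc18a3 (black circles) and Chat (olive squares) as reported and in each of the 23 other ways of processing, with lines of 1 standard error. Slc18a3 stays between -1.86 and -1.26, and Chat between -0.23 and 0.12.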

How the data were processed

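RNA of the right stellate ganglion was sequenced in 4 Wistar rats and 4 SHR, grouped by the strain in the labels, which name a stranded kit and a micro extraction kit where the methods name SMARTer amplification and another kit. The authors quantified reads with Salmon 0.8.2 against RefSeq mRNA of the rn6 build, after FastQC 0.11.7, with corrections for GC and positional bias. The deposited values are an estimated count (expected count, not normalised between samples) and a TPM per record, at 25820299 to 35509074 counts per rat.

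Counts were rounded and fitted with edgeR 4.0.16 in R 4.3.3 (TMM, filterByExpr with a minimum count of 10, glmQLFit, glmQLFTest), with strain as the only term, and the fit was tested on simulated data. Standard errors were taken from the F statistic, as |log2 fold change| over its root. The 95% intervals used the normal quantile of 1.96, so they are approximate. Gene names came from the RefSeq table of GRCr8, which named 17360 of 18314 records and all 10 members. Named records were the members, the records past the threshold in each list or otherwise its 2 most abundant, and the 5 most like Chat and the most abundant muscarinic receptor. Members and lists were chosen with earlier results of these data known. Alternatives used DESeq2 1.42.0 and limma 3.58.1 on log2(TPM + 0.1) and log2(TPM + 1). No 2 rats of a strain had counts within sampling noise of each other.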

Additional observations from a re-analysis of the deposited data

How the results depend on the processing

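edgeR called 389 records. DESeq2 called 782, DESeq2 with a length offset 851 and edgeR with the replicate block 132, and leaving out each rat gave 237 to 454. DESeq2 on the records that edgeR tested called 780, and edgeR without Wistar 1 and SHR 1 called 1068; both of these alternatives were chosen after seeing the data. The log2 fold change of Slc18a3 was -1.80 to -1.45 without each rat. For Chat it was -0.23 to 0.12 without each rat and 0.10 when scaled to neuronal markers, for Chrm1 -0.36 to 0.017, for Slc5a7 -0.022 to 0.25, and for Bche -0.29 to 0.081 without each rat, 0.24 without Wistar 1 and SHR 1 and 0.052 when scaled to neuronal markers. These 4 genes thus changed sign while past the threshold in no fit. Ache was at -0.59 to -0.25 without each rat and passed it without Wistar 1 and SHR 1, at -0.69. Slc5a7 was at 0.34 without these 2 rats. The cause was not tested.

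Same-numbered rats of the strains deviated from their means with correlations of -0.24 to -0.027 over 4 pairs, which gave no sign of pairing by number. So few pairs cannot exclude that same-numbered rats were handled together. With the replicate block, Slc18a3 had an adjusted p of 0.0493 (edgeR), and Vip, Calca, Rgs8, Kcnj3 and Chrnb4 had 0.0524, 0.152, 0.0628, 0.192 and 0.0869 (edgeR). Over all results, 405 other values were classed as the same, 32 as weaker, 6 as stronger and 12 as of opposite sign. For fold changes, the same meant that direction and side of the threshold were kept. The tally also held mean TPM values and counts of records called. Those counts were the same in 12 settings, weaker in 5 and stronger in 4. Counts of 11 or fewer per rat limit what can be said of Chrm3 and Chrm4.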
